A study of Mus musculus with 8 samples.

Results

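The genes described here are the translation initiation and elongation factors (Eif and Eef genes) of mouse embryonic fibroblasts (MEFs), with the small families that share their names. They were chosen by symbol: every gene whose symbol starts with Eif and a digit from 1 to 6, or with Eef1 or Eef2, leaving out the eIF2α kinases (Eif2ak genes) and the eEF2 kinase gene. The rule found 65 of the 17910 genes in the table. RNA sequencing compared 4 groups of 2 libraries of wild-type MEFs bought from a cell bank. One group received SRT1720 at 0.2 µM for 30 min and then RSL3 at 1 µM for 2 h (SRT1720+RSL3), and the others received RSL3 without SRT1720, SRT1720 without RSL3, or neither (control), all labelled 2 h. RSL3 is an inhibitor of the lipid peroxidase GPX4 that is used to induce ferroptosis, an iron-dependent cell death, and SRT1720 was developed as an activator of the deacetylase SIRT1. The labels do not say what control cells received in place of the compounds, or whether the 2 libraries of a group came from separate cultures, so a p-value reflects only how far these libraries spread, which may be technical.

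Translation starts when eIF2, carrying the initiator tRNA, joins the small ribosomal subunit with eIF1, eIF1A, eIF3 and eIF5, and when the cap-binding complex eIF4F (eIF4E, eIF4A and eIF4G) brings in the mRNA. eIF2B recharges eIF2 with GTP, and the eIF4E-binding proteins hold eIF4E away from eIF4G when mTORC1 signalling is low. During elongation eEF1A delivers each aminoacyl-tRNA, the eEF1B complex recharges eEF1A, eEF2 moves the ribosome on by a codon, and eIF5A, which carries the modified residue hypusine, helps at sequences where peptide bonds form slowly.

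The libraries held between 20579122 and 21287620 counts. Of the 65 members, 61 passed the low-count filter that left 12618 genes in all; Eef1a2, Eif4e1b, Eif4a3l1 and Eif2s3y, each under 0.5 CPM (counts per library scaled to a common total) in every library, were not tested. RSL3 replicate 2 and control replicate 2 departed from their replicate 1 in a like way, with a correlation of 0.70 between the deviations of 8753 genes, which are not independent replicates. The fibroblast markers Col1a1 (at least 1780 CPM), Vim (at least 2273 CPM) and Fn1 (at least 1569 CPM) were high in every library. Dcn, in contrast, reached only 0.717 CPM and Postn 9.59 CPM. The 4 macrophage markers found in the table summed to 32.1 and 34.7 CPM in SRT1720+RSL3 cells, 27.2 to 35.9 CPM in RSL3 cells, 24.2 to 27.1 CPM in SRT1720 cells and 15.4 to 18.5 CPM in control cells. Of these 4, Cd68, Csf1r and Cd14 rose with RSL3 against control, while Ptprc, which defines white blood cells, stayed at or below 0.0882 CPM in every library. The 4 endothelial markers summed to at most 9.97 CPM and the 5 epithelial markers to at most 3.39 CPM, and both sums were highest in SRT1720+RSL3 cells; the 4 muscle markers summed to at most 5.15 CPM, with Myog at 0 throughout. The 4 neural markers summed to 214 to 235 CPM in the libraries with RSL3 and 225 to 269 CPM in those without, mostly Nes and Tubb3, with Sox2 at most 0.353 CPM. The part of any such cells in the results was not tested, and in bulk RNA fewer cells of a type and less RNA per cell cannot be told apart.

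Promoter sequences are shown for 5 members whose changes the results below turn on: Eif1 and Eef2, which rose with RSL3, and Eif4a2, Eif4ebp2 and Eef1aknmt, which fell. Each line gives the 250 bases before the RefSeq transcript start (build GRCm38.p6), 5′ to 3′ on the gene's own strand. Capitals mark matches, on either strand, to any of 6 motifs searched. These were the C/EBP-ATF response element TGATGNAA, the cyclic AMP response element TGACGTCA, the E-box CACGTG, the antioxidant response element TGACNNNGC, the heat shock element GAANNTTC and the TATA box TATAAA.
Eif1, chr11:100319699-100319948, plus strand: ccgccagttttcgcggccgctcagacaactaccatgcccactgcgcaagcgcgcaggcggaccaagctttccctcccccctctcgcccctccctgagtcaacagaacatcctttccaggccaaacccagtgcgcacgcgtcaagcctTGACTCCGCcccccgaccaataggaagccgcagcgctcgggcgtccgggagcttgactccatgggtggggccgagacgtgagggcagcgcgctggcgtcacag
Eef2, chr10:81176381-81176630, plus strand: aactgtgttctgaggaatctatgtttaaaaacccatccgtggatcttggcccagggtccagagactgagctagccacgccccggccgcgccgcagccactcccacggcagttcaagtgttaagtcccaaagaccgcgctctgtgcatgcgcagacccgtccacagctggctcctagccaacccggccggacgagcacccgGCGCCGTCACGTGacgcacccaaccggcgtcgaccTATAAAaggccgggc
Eif4a2, chr16:23107218-23107467, plus strand: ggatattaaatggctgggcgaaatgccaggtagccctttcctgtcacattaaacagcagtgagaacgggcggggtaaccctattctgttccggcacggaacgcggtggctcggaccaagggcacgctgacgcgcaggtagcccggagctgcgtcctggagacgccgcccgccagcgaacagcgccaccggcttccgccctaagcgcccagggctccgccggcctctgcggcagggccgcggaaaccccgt
Eif4ebp2, chr10:61452670-61452919, minus strand: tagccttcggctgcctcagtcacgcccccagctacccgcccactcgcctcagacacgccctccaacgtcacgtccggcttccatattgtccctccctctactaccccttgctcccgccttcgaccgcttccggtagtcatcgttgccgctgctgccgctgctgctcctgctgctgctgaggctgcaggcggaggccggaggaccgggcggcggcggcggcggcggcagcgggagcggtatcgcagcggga
Eef1aknmt, chr1:162548346-162548595, minus strand: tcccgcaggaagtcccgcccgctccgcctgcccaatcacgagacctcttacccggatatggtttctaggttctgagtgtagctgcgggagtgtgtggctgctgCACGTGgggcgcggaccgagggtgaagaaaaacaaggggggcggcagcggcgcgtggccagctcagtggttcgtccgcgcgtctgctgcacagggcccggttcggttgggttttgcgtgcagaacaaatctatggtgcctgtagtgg

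In Eif1 the capitals are an antioxidant response element match 103 bases before the start. In Eef2 an antioxidant response element match on the opposite strand overlaps an E-box, and a TATA box lies 15 bases before the start. Eef1aknmt holds an E-box 147 bases before its start, and none of the 6 motifs lies in the Eif4a2 and Eif4ebp2 windows. Over the full windows, which run on to 50 bases from the start, 49 of the 65 members had a RefSeq promoter. An E-box was found in 14 of those 49 members (28.6%), in 11.8% of the 10099 tested genes with a promoter and in 7.15% of all 32851 promoters. The antioxidant response element lay in 13 members (26.5%), 16.9% of tested genes and 12.4% of all promoters. Members and tested genes are counted by gene, with a match in any of its promoters, whereas all promoters are counted singly. By promoter, 16 of the 61 promoters of members held an E-box and 14 an antioxidant response element. Eef1akmt4 and Eef1akmt4-ece2 share 1 window, whose matches to these motifs count for both genes. Heat shock element and TATA box matches were found in 5 members each (10.2%), against 6.87% and 8.64% of tested genes and 7.86% and 13.6% of all promoters. The C/EBP-ATF response element was found in Eif2s3x alone (2.04% of members), against 2.67% of tested genes and 3.97% of all promoters. The cyclic AMP response element was found in Eef2 alone (2.04% of members), against 3.53% of tested genes and 1.79% of all promoters. These matches are descriptions of letters, not of binding.

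Levels are CPM after trimmed-mean (TMM) scaling of library composition, and between genes they are compared per kb of transcript. Eef1a1 stood at 8190 and 7914 CPM per kb in RSL3 cells, against 6243 and 6158 CPM per kb in control cells, the highest of the members. In control cells the order went on with Eef2 at 1735 ± 129 CPM per kb, Eif5a at 999 ± 106, Eef1g at 686 ± 39.0, Eif4a1 at 560 ± 37.8 and Eif3h at 428 ± 14.7 (SD, n = 2). None of these 6 overlapped its neighbours, but Eif1 at 301 ± 25.8, Eif3l at 299 ± 19.1 and Eif3b at 276 ± 25.8 CPM per kb each overlapped the next, so their order was within the spread. Per kb of all exons joined, Eif3h stood 5th, Eif3b 6th and Eif4a1 7th, so these places depend on the length used. The eIF3 subunits alone ran from Eif3h down to Eif3j2 at 2.31 CPM per kb. All 65 members together took 3.65% and 3.67% of the unscaled counts in SRT1720+RSL3 cells, 3.57% and 3.68% in RSL3 cells, 3.62% and 3.65% in SRT1720 cells and 3.60% and 3.74% in control cells, and these shares overlapped. After TMM scaling their summed levels did not: they were 38695 and 39450 CPM with SRT1720+RSL3 and 39525 and 41017 CPM with RSL3, against 33402 and 33930 CPM with SRT1720 and 32331 and 34619 CPM in control cells. Of the unscaled counts the eIF4 cap-binding and helicase factors took 0.454% and 0.441% with SRT1720+RSL3 and 0.419% and 0.495% with RSL3, against 0.536% and 0.531% with SRT1720 and 0.550% and 0.602% in control cells. The elongation factors, in contrast, took 2.27% and 2.30% with SRT1720+RSL3 and 2.31% and 2.29% with RSL3, against 2.24% and 2.24% with SRT1720 and 2.18% and 2.19% in control cells. Both sets of shares separated the libraries with RSL3 from those without. After TMM scaling the elongation factors still did, at 24044 to 25536 CPM with RSL3 against 19568 to 20865 CPM without it, but the eIF4 factors overlapped, at 4637 to 5509 CPM against 4936 to 5577 CPM.

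**Figure D1:**
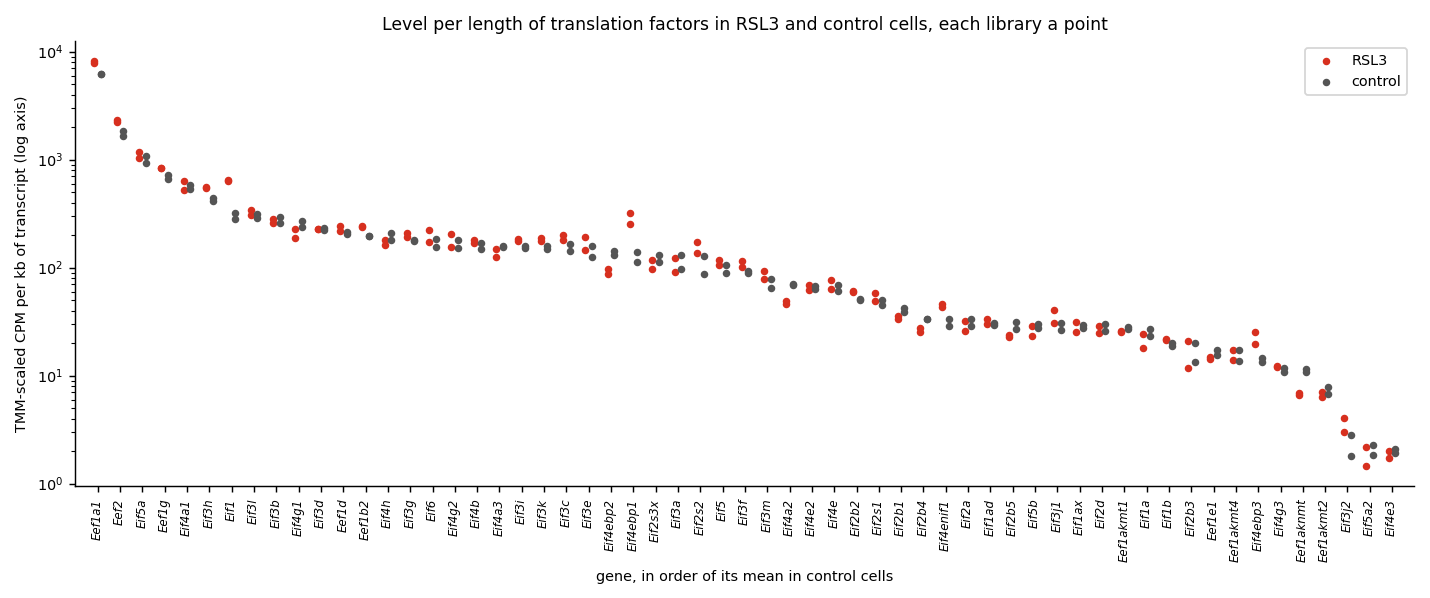
TMM-scaled CPM per kb of transcript (log axis) of the members at 1 CPM per kb or more in control cells, in order of their control mean, with each library as a point (RSL3 red, control grey). Eef1a1, at 6158 or above in both groups, tops the order, and Eif1 and Eif4ebp1 are the members whose RSL3 points stand furthest above the control points.

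RSL3 against control asks which factor transcripts changed within 2 h of GPX4 inhibition. Of the 61 tested members 11 rose and 6 fell (edgeR quasi-likelihood test, Benjamini-Hochberg adjusted p under 0.05 over all genes), against 18.3% of all tested genes higher and 17.5% lower. The members' median log2 fold change was 0.11 and that of all genes 0.01, and the median size of a change, whatever its sign, was 0.20 for members and 0.33 for all genes. In cells given SRT1720, RSL3 (SRT1720+RSL3 against SRT1720) was accompanied by a rise of 13 members and a fall of 4, against 12.3% of all genes higher and 9.06% lower. The 2 comparisons share no library. Eef2, Eif3c, Eef1b2, Eif1, Eif4ebp1, Eif2s2 and Eif4enif1 rose in both, which is 7 of the 11 risers without SRT1720 and 7 of the 13 with it (63.6% and 53.8%), and Eif4ebp2 and Eif4a2 fell in both. Of all genes, 1105 rose in both, 47.9% of the risers without SRT1720 and 71.3% of those with it, and 780 fell in both. No member and 42 of all genes were called in opposite directions. Counting only whether all libraries of one group lay above or below those of the other, RSL3 was above control for 23 members and below for 11 (31.9% and 31.6% of all genes), and SRT1720+RSL3 was above SRT1720 for 35 and below for 11 (33.6% and 34.2% of all genes).

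Scaling bears on these counts. With library size in place of TMM, the median log2 fold change of all genes was −0.27 for RSL3 against control and −0.21 for SRT1720+RSL3 against SRT1720, and 2 members were higher and 20 lower in the first and 4 higher and 9 lower in the second. Of all genes, 9.67% were then higher and 37.1% lower in the first, and 7.09% and 24.3% in the second. All fold changes below are therefore relative to the bulk of genes. For RSL3 against control, leaving out any 1 library but RSL3 replicate 2 left fewer members past the threshold. The share of all genes past it fell as well. The members' median log2 fold change ran from 0.03 without RSL3 replicate 2 to 0.16 without control replicate 2. That of all genes was −0.007 and 0.02 in these settings. For SRT1720+RSL3 against SRT1720 the members higher numbered 3 without SRT1720 replicate 1, 8 without SRT1720 replicate 2, 5 without SRT1720+RSL3 replicate 1 and 4 without SRT1720+RSL3 replicate 2. Those lower numbered 1, 2, 1 and 0 in the same order. In these 4 settings 5.07% to 6.48% of all genes were higher and 2.99% to 3.8% lower. Without both libraries numbered 2 of RSL3 and control, the first comparison had 12 higher and 8 lower and the second 22 higher and 6 lower, against 18.6% and 17.1% of all genes in the first and 18.9% and 16.8% in the second.

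**Figure D2:**
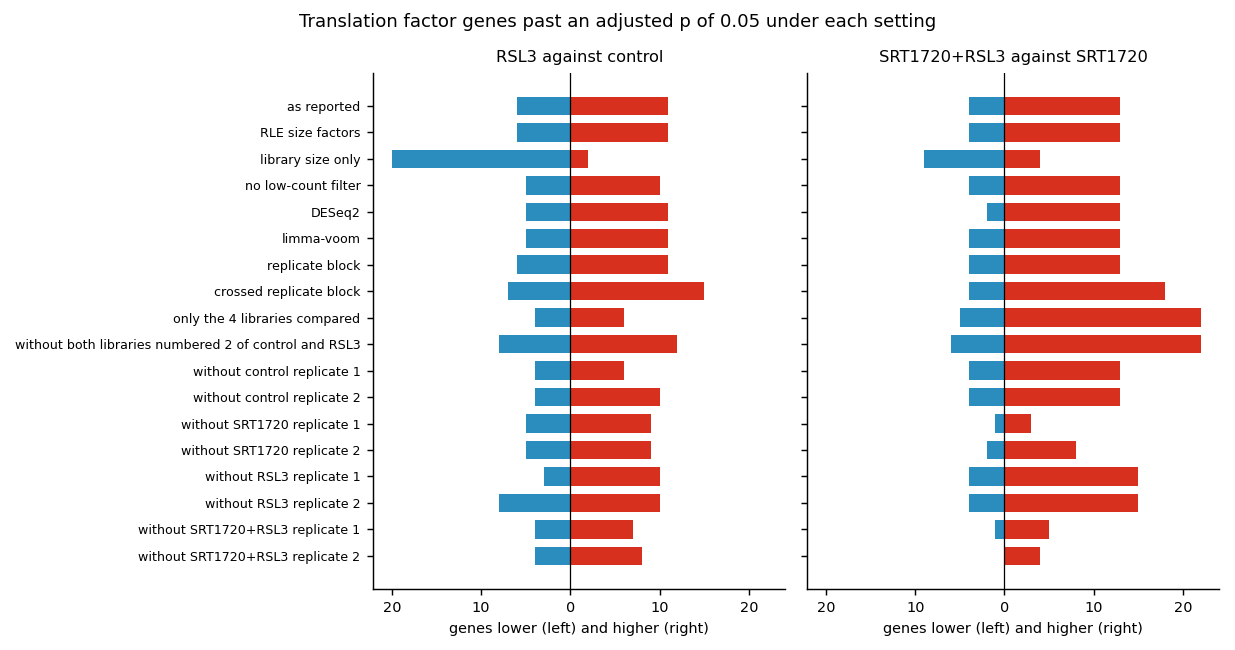
Number of tested members higher (bars right of 0) and lower (bars left of 0) under the main and 17 alternative settings for RSL3 against control (left) and SRT1720+RSL3 against SRT1720 (right). With library size only the first turns to 2 higher and 20 lower and the second to 4 higher and 9 lower, and without SRT1720 replicate 1 the second has 3 higher and 1 lower.

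**Figure D3:**
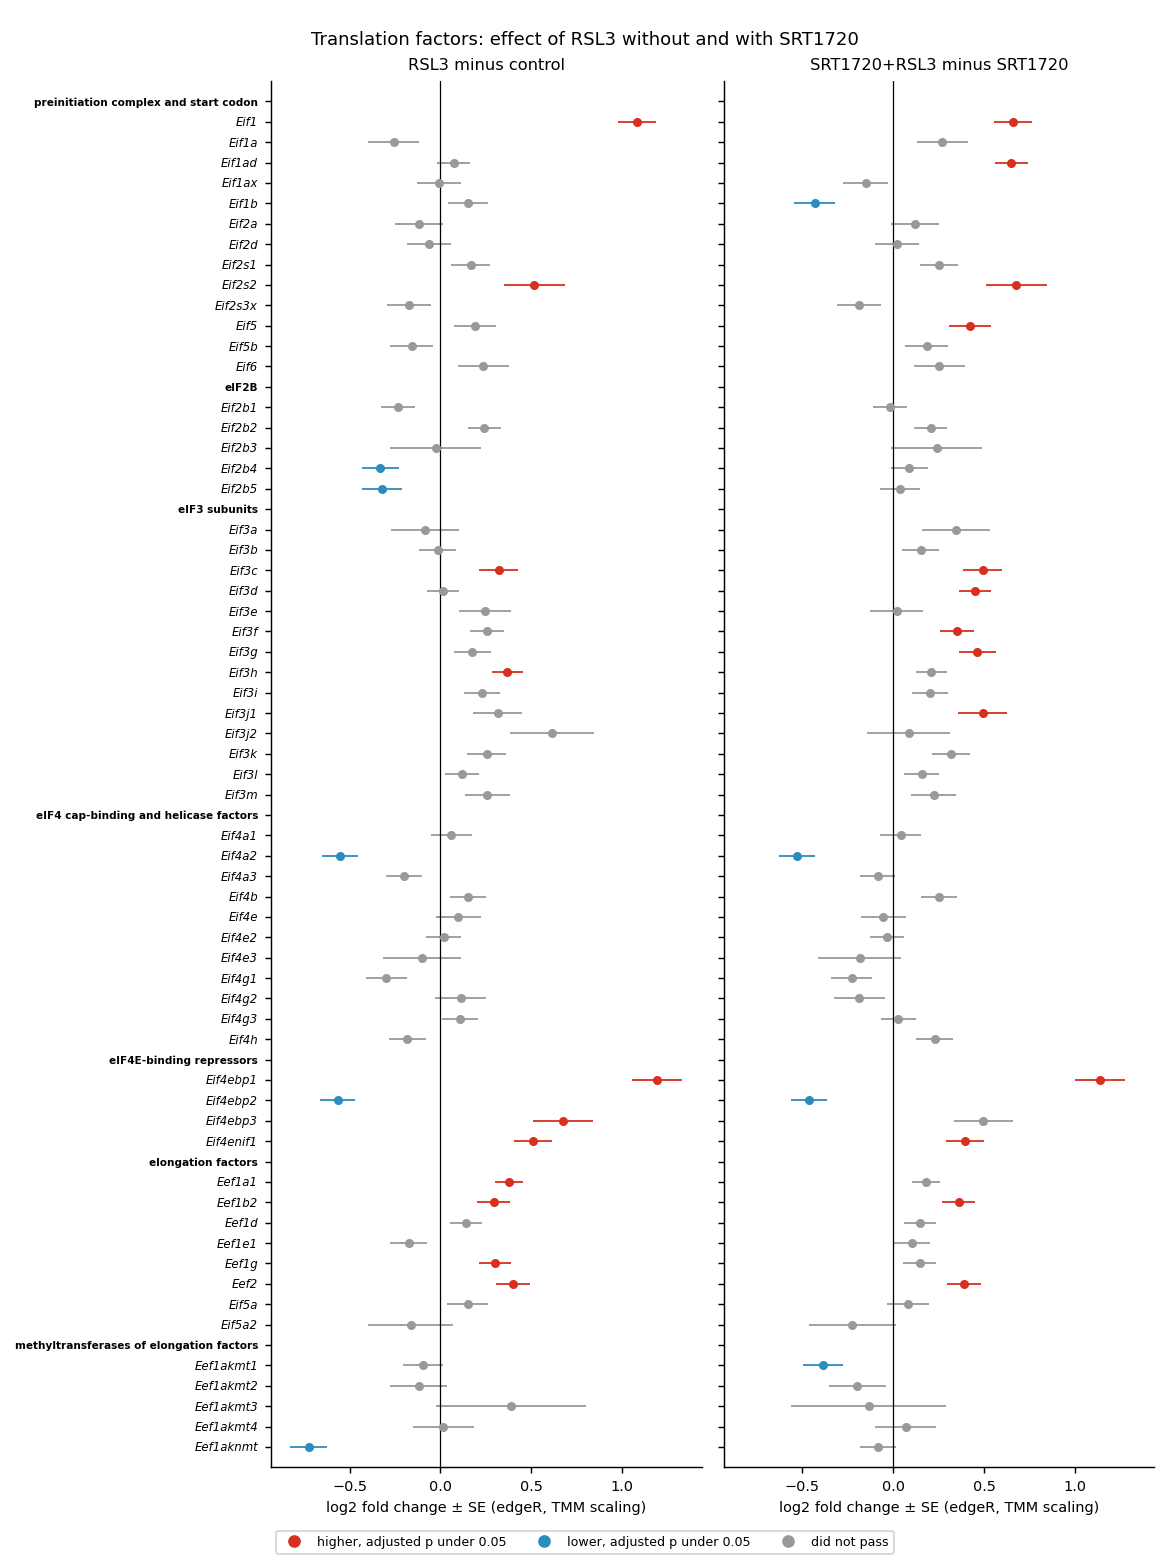
Log2 fold change ± SE of 60 tested members by role for RSL3 minus control (left) and SRT1720+RSL3 minus SRT1720 (right); red points rose, blue points fell, grey points did not pass an adjusted p of 0.05. Eif4ebp1 stands furthest right in both panels, and the readthrough gene Eef1akmt4-ece2, at 0 in the RSL3 libraries, is left out.

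The eIF4E-binding repressors changed in both directions. Eif4ebp1, the best known mTORC1-regulated repressor of eIF4E, stood at 590 and 656 CPM in SRT1720+RSL3 cells, 645 and 510 CPM in RSL3 cells, 288 and 278 CPM in SRT1720 cells and 226 and 280 CPM in control cells. Its RSL3 libraries lay well above all libraries without RSL3. It rose 2.28-fold with RSL3 against control (log2 1.19 ± 0.14 SE, edgeR adjusted p = 0.000152) and by a log2 of 1.14 ± 0.14 with SRT1720+RSL3 against SRT1720 (edgeR adjusted p = 0.000503). Both calls were kept under all 17 alternatives, with log2 values of 0.91 to 1.51 and 0.93 to 1.21. Its paralog Eif4ebp2 did the reverse, with 141 and 137 CPM in SRT1720+RSL3 cells, 138 and 125 CPM in RSL3 cells, 202 and 182 CPM in SRT1720 cells and 202 and 187 CPM in control cells. The fall was −0.57 ± 0.10 against control (log2, edgeR adjusted p = 0.00166), kept under all 17 alternatives, and −0.46 ± 0.10 against SRT1720 (adjusted p = 0.00888). The second call was lost without SRT1720 replicate 1 (adjusted p = 0.0922), SRT1720+RSL3 replicate 1 (0.0611) or SRT1720+RSL3 replicate 2 (0.0802).

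The third family member, Eif4ebp3, had 16.0 and 19.9 CPM in SRT1720+RSL3 cells, 18.8 and 14.7 CPM in RSL3 cells, 13.2 and 12.2 CPM in SRT1720 cells and 10.9 and 9.99 CPM in control cells. It rose with RSL3 against control (log2 0.67 ± 0.16, edgeR adjusted p = 0.0101). That call was lost without RSL3 replicate 1 (0.0611) or control replicate 2 (0.0535) and with library size only (log2 0.39, adjusted p = 0.0820). Against SRT1720 its log2 difference was 0.50 with SRT1720+RSL3 and did not pass (edgeR adjusted p = 0.0549). Eif4enif1, which encodes the eIF4E transporter 4E-T, stood at 153 and 144 CPM in SRT1720+RSL3 cells, 158 and 169 CPM in RSL3 cells, 118 and 108 CPM in SRT1720 cells and 106 and 123 CPM in control cells. It rose by 0.51 ± 0.10 with RSL3 against control (edgeR adjusted p = 0.00409), with a log2 of 0.23 that did not pass with library size only (adjusted p = 0.0902), and by 0.39 ± 0.10 with SRT1720+RSL3 against SRT1720 (adjusted p = 0.0243). The second call was lost on leaving out any 1 of its 4 libraries (0.0849 to 0.171). All 4 repressor genes were thus called in the RSL3 comparison with control, 3 higher and 1 lower, against 1 and 1 with library size only. Among all genes 18.3% were higher and 17.5% lower, against 9.67% and 37.1% with library size only.

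**Figure D4:**
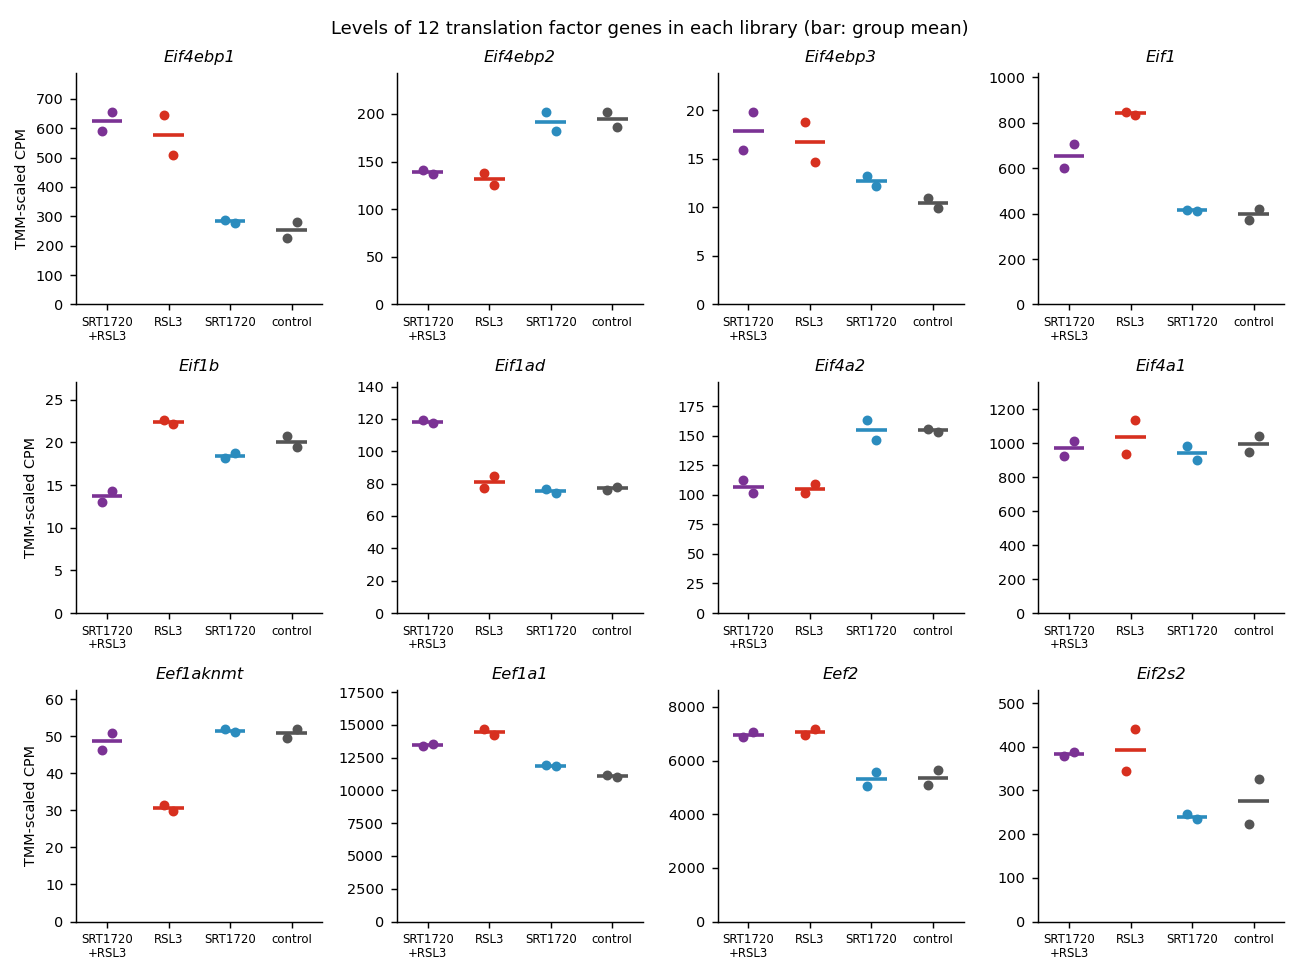
TMM-scaled CPM (linear axes from 0) of 12 members in each of the 8 libraries, groups in the order SRT1720+RSL3, RSL3, SRT1720 and control, with bars at group means. Eif4ebp1 and Eif1 are higher and Eif4ebp2 and Eif4a2 lower in all 4 libraries with RSL3, whereas Eef1aknmt is low in the 2 RSL3 libraries alone and Eif1ad high in the 2 SRT1720+RSL3 libraries alone.

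The preinitiation complex and start codon genes were grouped by symbol and include Eif6 and Eif1ad. Of 13 tested, 2 rose and none fell with RSL3 against control by edgeR. At an unadjusted p under 0.05 they numbered 2, and DESeq2 and limma-voom also called 2 higher and 0 lower. With SRT1720+RSL3 against SRT1720, 4 rose, Eif1ad among them, and 1 fell. Of all genes, 18.3% were higher and 17.5% lower in the first comparison, and 12.3% and 9.06% in the second. Eif1, whose protein keeps the scanning ribosome from stopping at poor start codons, stood at 599 and 708 CPM in SRT1720+RSL3 cells, 849 and 836 CPM in RSL3 cells, 414 and 414 CPM in SRT1720 cells and 374 and 422 CPM in control cells. The RSL3 group was highest, the SRT1720+RSL3 group next, and the 2 groups without RSL3 overlapped. It rose by 1.08 ± 0.11 with RSL3 against control (log2, edgeR adjusted p = 5.44e-05) and by 0.66 ± 0.11 with SRT1720+RSL3 against SRT1720 (adjusted p = 0.00213), both kept under all 17 alternatives. Its close paralog Eif1b had 13.1 and 14.3 CPM in SRT1720+RSL3 cells, 22.6 and 22.1 CPM in RSL3 cells, 18.1 and 18.8 CPM in SRT1720 cells and 20.8 and 19.5 CPM in control cells. Against SRT1720 it fell with SRT1720+RSL3 (log2 −0.43 ± 0.11, edgeR adjusted p = 0.0232). It was no longer called on leaving out any 1 of those 4 libraries (adjusted p 0.0746 to 0.154) and under DESeq2 (0.0505). With RSL3 against control its log2 difference was 0.15 ± 0.11 and did not pass.

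Eif2s2, the β subunit of eIF2, had 379 and 388 CPM in SRT1720+RSL3 cells, 346 and 441 CPM in RSL3 cells, 245 and 234 CPM in SRT1720 cells and 223 and 327 CPM in control cells. It rose by 0.52 ± 0.17 with RSL3 against control (log2, edgeR adjusted p = 0.0377) and by 0.68 ± 0.17 with SRT1720+RSL3 against SRT1720 (adjusted p = 0.0185). The first call was lost without control replicate 1 (log2 0.26), RSL3 replicate 2 (log2 0.33) or any 1 SRT1720 or SRT1720+RSL3 library (adjusted p 0.0683 to 0.0721), with library size only (log2 0.24, adjusted p = 0.254) and with only the 4 libraries compared (0.145). The second was lost on leaving out any 1 of its 4 libraries (adjusted p 0.0865 to 0.130). The α subunit gene Eif2s1, the target of the eIF2α kinases, was at 189 and 192 CPM in SRT1720+RSL3 cells, 166 and 197 CPM in RSL3 cells, 157 and 163 CPM in SRT1720 cells and 153 and 171 CPM in control cells, and passed in neither comparison (log2 0.17 and 0.25), though the second passed with only the 4 libraries compared (edgeR adjusted p = 0.0209) and without both libraries numbered 2 of RSL3 and control (0.0242). Eif5, whose protein triggers GTP hydrolysis by eIF2, had 596 and 507 CPM with SRT1720+RSL3, 427 and 476 CPM with RSL3, 410 and 413 CPM with SRT1720 and 364 and 427 CPM in control cells. It rose with SRT1720+RSL3 against SRT1720 (log2 0.42 ± 0.12, edgeR adjusted p = 0.0271). That call was lost without SRT1720 replicate 1 (0.154), SRT1720 replicate 2 (0.133) or SRT1720+RSL3 replicate 1 (0.208), and with library size only (log2 0.22, adjusted p = 0.162). RSL3 against control gave 0.19 and did not pass.

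Of the 11 tested eIF4 cap-binding and helicase genes, only Eif4a2 passed in either RSL3 comparison by edgeR. DESeq2 called 2 lower with RSL3 against control. By edgeR, 18.3% of all genes were higher and 17.5% lower with RSL3 against control. With SRT1720+RSL3 against SRT1720 these shares were 12.3% and 9.06%. Eif4a2, one of the pair of near-identical cytoplasmic eIF4A RNA helicases, had 113 and 101 CPM in SRT1720+RSL3 cells, 102 and 109 CPM in RSL3 cells, 163 and 146 CPM in SRT1720 cells and 156 and 153 CPM in control cells, with no overlap between libraries with and without RSL3. It fell by 0.55 ± 0.10 against control (log2, edgeR adjusted p = 0.00202), a call kept under all 17 alternatives. It fell by 0.53 ± 0.10 against SRT1720 (adjusted p = 0.00484), but that call was lost without SRT1720 replicate 1 (0.0631) or SRT1720+RSL3 replicate 2 (0.0633). The major helicase gene Eif4a1 was at 927 and 1015 CPM in SRT1720+RSL3 cells, 938 and 1135 CPM in RSL3 cells, 984 and 903 CPM in SRT1720 cells and 947 and 1042 CPM in control cells, with log2 differences of 0.06 and 0.04 that did not pass. The cap-binding protein gene Eif4e had 200 and 190 CPM with SRT1720+RSL3, 184 and 222 CPM with RSL3, 220 and 184 CPM with SRT1720 and 179 and 201 CPM in control cells (log2 0.10 ± 0.12 without SRT1720 and −0.05 ± 0.12 with it; neither passed).

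The scaffold gene Eif4g1 stood at 1126 and 1084 CPM with SRT1720+RSL3, 1015 and 1222 CPM with RSL3, 1258 and 1331 CPM with SRT1720 and 1275 and 1473 CPM in control cells. Its log2 differences of −0.30 and −0.23 did not pass (edgeR adjusted p = 0.0665 and 0.184). The first was called lower under 7 of 17 alternatives, among them DESeq2 (adjusted p = 0.0443) and library size only (log2 −0.58), and the second under 3. Eif4g2, a relative of eIF4G that lacks the eIF4E-binding site, was at 823 and 713 CPM with SRT1720+RSL3, 889 and 1171 CPM with RSL3, 866 and 882 CPM with SRT1720 and 872 and 1034 CPM in control cells, and did not pass (log2 0.11 and −0.19). With library size only, 5 of the 11 eIF4 genes were lower for RSL3 against control and 3 for SRT1720+RSL3 against SRT1720. The shares of all genes lower were then 37.1% and 24.3%.

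Subunits of eIF3, the large scaffold that bridges the small ribosomal subunit and eIF4F, mostly had small positive differences under TMM scaling and fewer under library size. With RSL3 against control 12 of 14 had a positive log2 difference but only Eif3c (0.32, edgeR adjusted p = 0.0431) and Eif3h (0.37 ± 0.08, adjusted p = 0.00669) rose. Among all 12618 tested genes 6422 were positive, 18.3% rose and 17.5% fell. With SRT1720+RSL3 against SRT1720 all 14 were positive and 5 rose: Eif3j1 (0.49), Eif3c (0.49), Eif3g (0.46), Eif3d (0.45) and Eif3f (0.35). Among all 12618 tested genes 6222 were then positive, 12.3% rose and 9.06% fell. With library size only, however, 4 of 14 were positive in the first comparison, with none higher and 2 lower, and 9 of 14 in the second, with none called. The shares of all genes were 9.67% higher and 37.1% lower in the first, and 7.09% and 24.3% in the second. Eif3h had 632 and 653 CPM in SRT1720+RSL3 cells, 706 and 727 CPM in RSL3 cells, 547 and 564 CPM in SRT1720 cells and 541 and 568 CPM in control cells; its RSL3 call was lost without control replicate 1 (edgeR adjusted p = 0.0522), with library size only (0.404) and with only the 4 libraries compared (0.0503). For Eif3c the levels were 657 and 670 CPM with SRT1720+RSL3, 611 and 680 CPM with RSL3, 443 and 500 CPM with SRT1720 and 477 and 556 CPM in control cells. The Eif3c call against control was lost without control replicate 1 (log2 0.21), RSL3 replicate 2 (log2 0.24) or any 1 SRT1720 or SRT1720+RSL3 library (adjusted p 0.0608 to 0.0853). Without SRT1720 replicate 1 the calls of Eif3c, Eif3d, Eif3g and Eif3j1 against SRT1720 were lost (edgeR adjusted p 0.0729 to 0.128), as they were without SRT1720+RSL3 replicate 2 (0.0673 to 0.0960). Without SRT1720+RSL3 replicate 1 the calls of Eif3c (0.0634) and Eif3j1 (0.175) were lost, and without SRT1720 replicate 2 that of Eif3j1 (0.166); that of Eif3f was lost on leaving out any 1 of those 4 libraries (0.0906 to 0.165). Eif3j1 and Eif3j2 are near-identical copies between which reads could be divided, so their values are uncertain.

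Among the 5 subunits of eIF2B, the exchange factor that phosphorylated eIF2 blocks, Eif2b4 and Eif2b5 fell with RSL3 against control. None passed by edgeR with SRT1720+RSL3 against SRT1720, with 1 at an unadjusted p under 0.05 and 0 called by DESeq2 or limma-voom. The shares of all genes by edgeR were 18.3% higher and 17.5% lower in the first comparison, and 12.3% and 9.06% in the second. Eif2b4 had 59.6 and 61.7 CPM in SRT1720+RSL3 cells, 49.9 and 54.7 CPM in RSL3 cells, 54.5 and 59.5 CPM in SRT1720 cells and 65.7 and 65.8 CPM in control cells (log2 −0.33 ± 0.10, edgeR adjusted p = 0.0273 for RSL3 against control). Eif2b5, the catalytic subunit, had 70.4 and 71.5 CPM with SRT1720+RSL3, 61.2 and 58.7 CPM with RSL3, 64.4 and 73.9 CPM with SRT1720 and 80.4 and 69.3 CPM in control cells (log2 −0.32 ± 0.11, edgeR adjusted p = 0.0482). The Eif2b4 call was lost without RSL3 replicate 1 (0.0869), control replicate 1 (0.0921) or control replicate 2 (0.0930) and with only the 4 libraries compared (0.0751), and the Eif2b5 call under 12 of 17 alternatives, among them leaving out any 1 library but control replicate 2 (adjusted p 0.0577 to 0.277, with a log2 of −0.21 without control replicate 1). Libraries of a group lay apart for Eif2b3, with 31.1 and 55.8 CPM in RSL3 cells and 35.2 and 53.3 CPM in control cells.

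The elongation factors included the most abundant members, and 4 of 8 tested rose with RSL3 against control under TMM scaling and none under library size: Eef2, Eef1a1, Eef1g and Eef1b2. Among all genes 18.3% rose under TMM scaling and 9.67% under library size. Eef1a1 had 13378 and 13564 CPM in SRT1720+RSL3 cells, 14693 and 14197 CPM in RSL3 cells, 11921 and 11843 CPM in SRT1720 cells and 11200 and 11048 CPM in control cells, so that the libraries with RSL3 were all above those without. The rise was 0.38 ± 0.08 with RSL3 against control (log2, edgeR adjusted p = 0.00443), whereas SRT1720+RSL3 against SRT1720 gave 0.18 ± 0.08 and did not pass (adjusted p = 0.133). For Eef2 the levels were 6866 and 7056 CPM in SRT1720+RSL3 cells, 6961 and 7185 CPM in RSL3 cells, 5044 and 5577 CPM in SRT1720 cells and 5078 and 5641 CPM in control cells. It rose in both comparisons, by 0.40 ± 0.09 (edgeR adjusted p = 0.00765) and by 0.39 ± 0.09 (adjusted p = 0.0147), the second call being lost without SRT1720 replicate 1 (0.128), SRT1720+RSL3 replicate 1 (0.0694) or SRT1720+RSL3 replicate 2 (0.0961). These rises are relative to the bulk of genes: with library size only, Eef1a1 and Eef2 were 0.09 and 0.12 higher with RSL3 than in control cells and did not pass, and none of the 8 was called higher. The eEF1B subunit genes Eef1g and Eef1b2 rose by 0.30 and 0.29 (edgeR adjusted p = 0.0248 and 0.0326), while Eef1d, at 0.14, did not pass. The Eef1g call was lost without control replicate 1 (0.143), either RSL3 library (0.0537 and 0.0659) or SRT1720+RSL3 replicate 1 (0.0513), and the Eef1b2 call on leaving out any 1 library of control, RSL3 or SRT1720+RSL3 (0.0548 to 0.115). With SRT1720+RSL3 against SRT1720 Eef1b2 rose by 0.36 (edgeR adjusted p = 0.0209). This second Eef1b2 call was lost without SRT1720 replicate 1 (0.176), SRT1720+RSL3 replicate 1 (0.0684) or SRT1720+RSL3 replicate 2 (0.161). Eif5a had 1372 and 1503 CPM with SRT1720+RSL3, 1391 and 1597 CPM with RSL3, 1443 and 1276 CPM with SRT1720 and 1246 and 1449 CPM in control cells and passed in neither comparison (log2 0.15 and 0.08).

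Of the 6 genes for methyltransferases that modify eEF1A, 2 fell and none rose with RSL3 against control, where 17.5% of all genes fell and 18.3% rose. Eef1aknmt, whose human protein METTL13 methylates the start and a lysine of eEF1A, stood at 46.4 and 50.7 CPM in SRT1720+RSL3 cells, 31.5 and 29.9 CPM in RSL3 cells, 51.8 and 51.1 CPM in SRT1720 cells and 49.6 and 52.0 CPM in control cells. The 2 RSL3 libraries were the lowest, and the other 6 lay together. The fall was −0.72 ± 0.10 (log2, edgeR adjusted p = 0.000446) and was kept under all 17 alternatives, whereas SRT1720+RSL3 against SRT1720 gave −0.08 ± 0.10 and did not pass. With library size only the second difference was −0.29 and passed (edgeR adjusted p = 0.0475), against −1.01 in the first. Eef1akmt4-ece2, a readthrough gene that shares exons with Eef1akmt4, had 26.44 and 18.89 estimated counts in control cells and was listed at 0 in both RSL3 libraries, at least 7.56-fold lower against a floor of 3 counts per library. It was also at 0 in both SRT1720+RSL3 libraries, at 0.01 in SRT1720 replicate 1 and at 24.52 in SRT1720 replicate 2. Reads divided between overlapping genes make its value uncertain. Its call was lost on leaving out any 1 library of control, RSL3 or SRT1720+RSL3 (edgeR adjusted p 0.0540 to 0.0882). Eef1akmt1 fell with SRT1720+RSL3 against SRT1720 (log2 −0.39 ± 0.11, edgeR adjusted p = 0.0329). It was no longer called on leaving out any 1 of those 4 libraries (0.0672 to 0.209) and under DESeq2 (0.0624).

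For SRT1720 by itself (SRT1720 against control) 0 of the 61 members passed by edgeR, DESeq2 or limma-voom, against 1.1% of all tested genes higher and 0.206% lower by edgeR. At an unadjusted edgeR p under 0.05 the members numbered 0, against 13.3% of all genes. The median log2 difference was −0.02. Eif4ebp1 was 0.16 ± 0.14, Eef1a1 0.10 ± 0.08 and Eif1 0.06 ± 0.10 higher on the log2 scale, none of which passed. A p that misses the threshold does not show equal levels.

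With SRT1720 given before RSL3 (SRT1720+RSL3 against RSL3), 4 of the 61 tested members rose and 2 fell. Of all tested genes, 11.4% were higher and 8.75% lower. At an unadjusted edgeR p under 0.05 the members numbered 10 (16.4%), a smaller share than the 34.4% of all genes. Eef1aknmt rose by 0.66 ± 0.10 (log2, edgeR adjusted p = 0.00216) and Eif1ad, which encodes a protein with an eIF1A-like domain, by 0.54 ± 0.09 (adjusted p = 0.00334), both kept under all 17 alternatives. Eif1ad had 119 and 117 CPM in SRT1720+RSL3 cells, against 77.6 and 84.6 CPM in RSL3 cells, 76.4 and 74.4 CPM in SRT1720 cells and 75.9 and 78.1 CPM in control cells. Eif1a, an eIF1A gene, had 89.8 and 83.7 CPM with SRT1720+RSL3 against 52.0 and 69.4 CPM with RSL3 and rose by 0.52 ± 0.14 (edgeR adjusted p = 0.0294). That call was lost without RSL3 replicate 1 (log2 0.34), without either SRT1720+RSL3 library (adjusted p 0.110 to 0.140) without either SRT1720 library (0.0627 and 0.0628) or with only the 4 libraries compared (0.0719). Eef1e1, which encodes a scaffold protein of the multi-tRNA synthetase complex, had 50.3 and 54.2 CPM with SRT1720+RSL3 against 37.9 and 36.2 CPM with RSL3 and rose by 0.50 ± 0.10 (edgeR adjusted p = 0.00949; 0.0930 without SRT1720+RSL3 replicate 2). Eif1b fell by 0.71 ± 0.11 (edgeR adjusted p = 0.0027), kept under all 17 alternatives. Eif1 fell by 0.37 ± 0.10 (edgeR adjusted p = 0.0356). That call was lost on leaving out any 1 of 6 libraries, those of SRT1720+RSL3, RSL3 and SRT1720 (0.0546 to 0.256, with a log2 of −0.24 without SRT1720+RSL3 replicate 1), and with only the 4 libraries compared (0.0742). How many members and how many of all genes passed changed with the libraries left out. The members' median log2 difference was 0.01 with all 8 libraries and −0.02 without SRT1720+RSL3 replicate 2. Without both libraries numbered 2 of RSL3 and control it was 0.07. Over all genes these medians were −0.008, −0.01 and −0.003.

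Whether the effect of one compound differed with the other was tested by the interaction, which passed for 2 of the 61 members, both positive, against 3.46% of all genes positive and 2.92% negative. The interaction was 0.64 ± 0.14 for Eef1aknmt (log2, edgeR adjusted p = 0.0274) and 0.57 ± 0.13 for Eif1ad (adjusted p = 0.0289). Both calls were lost on leaving out any 1 of the 6 libraries other than those of RSL3, with adjusted p of 0.0562 to 0.139 and log2 values of 0.55 to 0.72. For Eif1, Eif1b and Eif1a the interaction was −0.42, −0.59 and 0.53 and did not pass (edgeR adjusted p = 0.131, 0.0601 and 0.157). SRT1720+RSL3 against control, which shares its libraries with the other comparisons, had 17 members higher and 4 lower, against 17.4% and 14.1% of all genes. Its largest changes were those of Eif4ebp1 (log2 1.30), Eif4ebp3 (0.77), Eif1 (0.72) and Eif1ad (0.62) among risers and of Eif1b (−0.56), Eif4a2 (−0.53) and Eif4ebp2 (−0.48) among the members that fell at 5 CPM or more. The calls of Eif4ebp1, Eif1, Eif1ad and Eif4a2 were kept under all 17 alternatives. Those of Eif4ebp3 (log2 0.61) and Eif4ebp2 (−0.46) were lost without SRT1720+RSL3 replicate 2, and that of Eif1b (−0.50) without SRT1720+RSL3 replicate 1. In this comparison, too, the numbers of members and of all genes past the threshold changed with the library left out. The members' median log2 difference was 0.09 with all 8 libraries, 0.02 without control replicate 1 and 0.19 without control replicate 2. Over all genes these medians were −0.006, 0.005 and −0.004.

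Ratios of counts between related genes within a library need no scaling between libraries. Eif4ebp1 over Eif4ebp2 was 4.18 and 4.79 in SRT1720+RSL3 cells, 4.68 and 4.08 in RSL3 cells, 1.43 and 1.53 in SRT1720 cells and 1.12 and 1.50 in control cells. All 4 libraries with RSL3 were thus above 4 and all without it below 1.6. Eif4a2 over Eif4a1 was 0.122 and 0.0998 with SRT1720+RSL3, 0.108 and 0.0959 with RSL3, 0.166 and 0.162 with SRT1720 and 0.164 and 0.147 in control cells. Eif1 over Eif1b was 45.8 and 49.5 with SRT1720+RSL3, 37.5 and 37.8 with RSL3, 22.8 and 22.0 with SRT1720 and 18.0 and 21.7 in control cells. Eif4g2 over Eif4g1 was highest in the RSL3 cells, at 0.876 and 0.958, while SRT1720+RSL3 cells had 0.731 and 0.657, SRT1720 cells 0.688 and 0.663 and control cells 0.684 and 0.702. Eif1a over Eif1ax, its X-linked relative, was 0.692 and 0.653 with SRT1720+RSL3, 0.400 and 0.425 with RSL3, 0.547 and 0.461 with SRT1720 and 0.470 and 0.512 in control cells. Eef1a1 over Eef2 was 1.95 and 1.92 with SRT1720+RSL3, 2.11 and 1.98 with RSL3, 2.36 and 2.12 with SRT1720 and 2.21 and 1.96 in control cells. The control libraries overlapped those of RSL3 and of SRT1720, while both SRT1720+RSL3 libraries lay just below the other 6. With 2 libraries a group, an exact permutation test of such a ratio cannot give a two-sided p under 1 in 3.

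**Figure D5:**
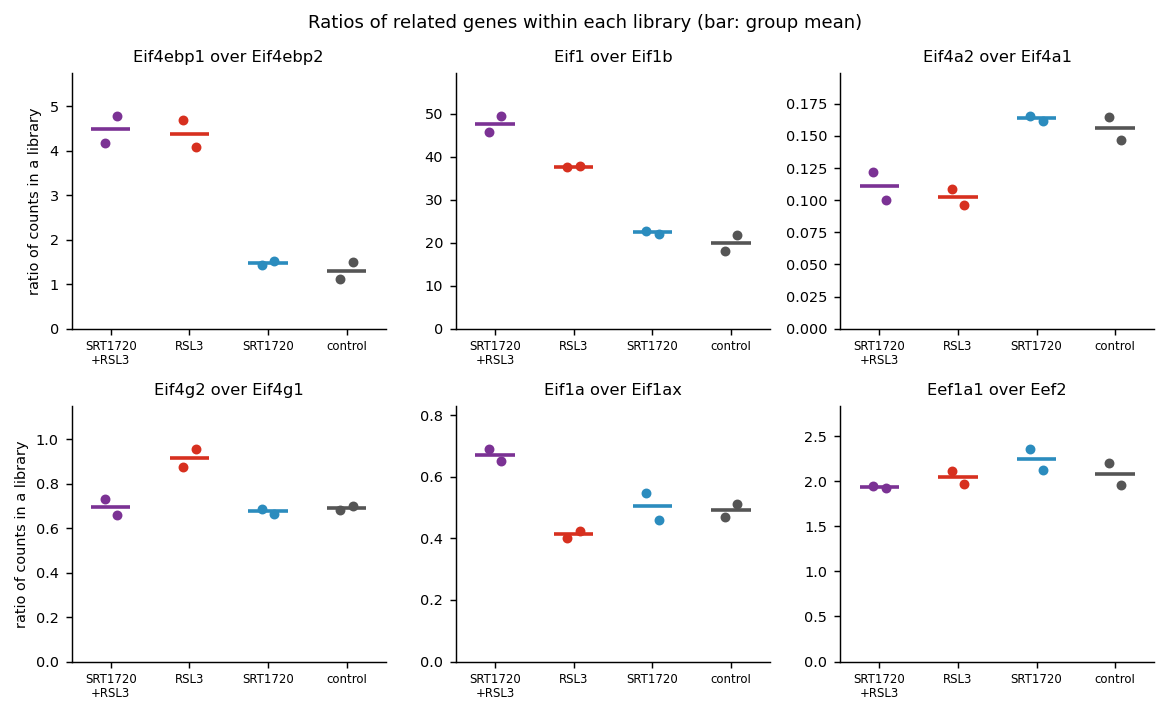
Ratio of the counts of 6 pairs of related genes within each of the 8 libraries (linear axes from 0, bars at group means), groups in the order SRT1720+RSL3, RSL3, SRT1720 and control. The Eif4ebp1 over Eif4ebp2 ratio is above 4 in the libraries with RSL3 and below 1.6 in the others, and the Eif4a2 over Eif4a1 ratio is at most 0.122 against at least 0.147.

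Among known regulators of these factors were some of larger change. For RSL3 against control, 18.3% of all genes were higher and 17.5% lower. Of 6 genes for eIF2α kinases and phosphatase subunits, 2 rose and 2 fell in this comparison. Ppp1r15a, the stress-induced phosphatase subunit GADD34, averaged 589 CPM in RSL3 cells and 48.8 CPM in control cells (log2 3.59, edgeR adjusted p = 7.41e-08), and Ppp1r15b rose by 0.70, whereas the kinase genes Eif2ak2 and Eif2ak1 had log2 changes of −0.77 and −0.39, both falls. Of 17 genes for the eEF2 kinase and for mTORC1 and MNK regulators, 7 rose and 1 fell. The mTORC1 inhibitor genes Ddit4 and Sesn2 rose by log2 values of 4.81 and 3.36, Mknk2, a kinase of eIF4E, by 1.17 and Akt1s1, the mTORC1 component PRAS40, by 0.94 (edgeR adjusted p at most 0.000103); Mlst8, an mTORC1 subunit, fell by 0.38 (adjusted p = 0.0202). With SRT1720+RSL3 against SRT1720, 2 of 6 rose and 1 fell in the first list and 5 of 17 rose in the second (Ddit4 3.14, Sesn2 2.73, Akt1s1 0.71, Rheb 0.46, all log2). The shares of all genes there were 12.3% higher and 9.06% lower. With SRT1720+RSL3 against RSL3, Ddit4 (−1.24), Mknk2 (−0.69), Eef2k (−0.57) and Sesn2 (−0.53) fell, 4 of the 17. The shares of all genes were 11.4% higher and 8.75% lower.

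Among other lists of translation genes for RSL3 against control (18.3% of all genes higher and 17.5% lower), calls were as follows. Of 7 poly(A) and cap partners 2 rose and 1 fell (Paip2 0.57, Paip2b 0.36 and Ncbp2 −0.54, log2), and of 10 other initiation, termination and recycling factors 1 rose and 2 fell (Etf1, a release factor, 0.50; Gspt2, another, −2.64; Dhx29 −0.46). One of 8 hypusine and diphthamide enzymes fell (Dph5, −0.78), as did 2 of 9 mitochondrial translation factors (Mtif3 −1.62 and Gfm2 −0.52), and neither of 2 selenocysteine elongation genes passed by edgeR, DESeq2 or limma-voom. Gspt2 was near the floor, with a mean of 0.500 CPM in RSL3 cells and 3.14 CPM in control cells. Calls in these lists and in those of the regulators were not checked with library size only or with libraries left out.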

How the data were processed

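RNA was sequenced from 8 libraries of wild-type MEFs, 2 in each of 4 groups, as stranded poly(A) libraries on an Illumina HiSeq X instrument, per the labels' protocols. The authors deposited 1 table of estimated counts per gene, made by a step that is not given in the sources used here. Of the members, 20 hold fractional and 45 only whole values. Aligner, counter, strand setting, genome build and filters: not given in the sources used here. HT1080 cells and lung homogenates, which the labels' extraction text also names, are not among these samples. A column was tied to a sample by its group and by the library name in the labels, the bare name being replicate 1 and the suffixed one replicate 2; 0 columns were unmapped. Nothing says that libraries of a group came from separate cultures, so the spread between them may be technical.

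Counts were rounded and fitted on all 8 libraries with edgeR 4.0.16 in R 4.3.3 (filterByExpr, TMM, glmQLFit, glmQLFTest), with p-values adjusted by Benjamini-Hochberg over 12618 genes at 0.05. TMM factors were 0.942 and 0.931 for SRT1720+RSL3, 0.903 and 0.898 for RSL3, 1.09 and 1.08 for SRT1720 and 1.11 and 1.08 for control. The common dispersion gives a biological coefficient of variation of 10.6%. Per-kb levels divide CPM by the median length of the matching GENCODE M21 transcripts. DESeq2 1.42.0, limma-voom 3.58.1, RLE factors, library size only, no filter, a replicate block, the 4 libraries compared alone, and leaving out libraries were tried as alternatives; the crossed block was added after seeing the data. The fit was checked on simulated counts. RefSeq promoters (GRCm38.p6, from 250 bases before to 50 after each start) were searched on both strands.

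The members, roles and gene lists were chosen with earlier results of these data known. Named members are 12 set genes plus up to 8 risers and 8 fallers per comparison that passed, averaged at least 5 CPM and did not overlap between groups. Eif3c, Eef1g, Eef1b2 and Eef1akmt4-ece2 in RSL3 against control, Eif3f, Eef1b2 and Eif4enif1 in SRT1720+RSL3 against SRT1720, and other members given only as not passing, were named after their values were seen. Reads could be divided between Eef1akmt4 and Eef1akmt4-ece2, Eif3j1 and Eif3j2, Eif4a3 and Eif4a3l1, Eif2s3x and Eif2s3y, Eif1a and Eif1ax, and Eef1a1 and its pseudogenes, so their values are uncertain. Eef2kmt falls outside the symbol rule. For Eif1a no sequence is shown.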

Additional observations from a re-analysis of the deposited data

Results flagged for a closer look

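Eef1aknmt and Eif1ad differed in their response to RSL3 with and without SRT1720, by the test of the difference itself. For Eef1aknmt the interaction was 0.64 on the log2 scale: RSL3 was accompanied by a log2 change of −0.08 ± 0.10 in cells given SRT1720, against −0.72 ± 0.10 in cells not given it. For Eif1ad it was 0.57: a log2 change of 0.65 ± 0.09 in cells given SRT1720, against 0.07 ± 0.09 in cells not given it. With library size only the interactions were 0.72 and 0.65, and the Eef1aknmt change in cells given SRT1720 was then −0.29 and passed (edgeR adjusted p = 0.0475). Each rests on 2 libraries a group, and each was lost when any 1 control, SRT1720 or SRT1720+RSL3 library was left out. Groups of 2 libraries are too small to test for single libraries far from the others.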

How the results depend on the processing

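With library size only, which moves the median of all genes by −0.27 (RSL3 against control), −0.21 (SRT1720+RSL3 against SRT1720) and −0.23 (SRT1720+RSL3 against control), the members higher and lower numbered 2 and 20, 4 and 9, and 4 and 17. Positive members then numbered 14 for RSL3 against control and 25 for SRT1720+RSL3 against SRT1720, against 37 and 43 under TMM. Among the named genes, the log2 differences of RSL3 against control turned negative for Eif4e (−0.18), Eif4a1 (−0.22), Eif4g2 (−0.17), Eif5 (−0.091), Eif2s1 (−0.12) and Eif5a (−0.13), and those of SRT1720+RSL3 against SRT1720 for Eef1a1 (−0.025), Eif4a1 (−0.17) and Eif5a (−0.13), all not past the threshold in the reported values. DESeq2 called 2 members lower for SRT1720+RSL3 against SRT1720. With only the 4 libraries compared, 6 members were higher for RSL3 against control, 22 for SRT1720+RSL3 against SRT1720, and 1 was lower for SRT1720+RSL3 against RSL3. Of all genes, 12.1% were then higher in the first and 20.1% in the second. Without both libraries numbered 2 of RSL3 and control, Eif4a1 stood at −0.015 for RSL3 against control. The members' median log2 difference was then 0.15 for SRT1720+RSL3 against SRT1720, 0.07 for SRT1720+RSL3 against RSL3 and 0.06 for the interaction. Over all genes these medians were −0.006, −0.003 and −0.01. The cause of these moves was not tested.

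Leaving out 1 library at a time gave 6 to 10 members higher and 3 to 8 lower for RSL3 against control, 3 to 15 and 0 to 4 for SRT1720+RSL3 against SRT1720, 0 and 0 for SRT1720 against control, 2 to 5 and 1 to 3 for SRT1720+RSL3 against RSL3, 4 to 19 and 2 to 8 for SRT1720+RSL3 against control, and 0 to 3 and 0 for the interaction. Signs turned for RSL3 against control in Eif4a1 (lowest −0.086, highest 0.17), Eif4e (−0.045 to 0.21) and Eif4g2 (−0.10 to 0.28), for SRT1720 against control in Eif1 (−0.030 to 0.15), and for SRT1720+RSL3 against SRT1720 in Eif4a1 (−0.025 to 0.10), Eif4e (−0.18 to 0.081) and Eif5a (−0.0061 to 0.17), none of which had passed.

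Replicate numbers did not pair the libraries in the same way in all groups. Deviations of same-numbered libraries correlated at 0.70 for RSL3 and control. The values were −0.39 for SRT1720+RSL3 and RSL3 and −0.29 for SRT1720+RSL3 and control. The main fit has no term for a deviation shared between groups. With the replicate block the members higher and lower numbered 11 and 6 for RSL3 against control and 13 and 4 for SRT1720+RSL3 against SRT1720. Of all genes, 18.6% were then higher and 17.6% lower in the first, and 12.5% and 9.01% in the second. The members' median log2 difference with the block was −0.02 for SRT1720 against control and 0.02 for SRT1720+RSL3 against RSL3. It was 0.09 for SRT1720+RSL3 against control and 0.04 for the interaction. Over all genes these medians were −0.001, −0.005, −0.002 and −0.02. The block also brought Eif4g1 past the threshold for RSL3 against control (edgeR adjusted p = 0.0415). With the numbers of SRT1720+RSL3 crossed, 15 members were higher and 7 lower for RSL3 against control, against 21.2% and 20% of all genes. For SRT1720+RSL3 against SRT1720 18 were higher and 4 lower, against 15.4% and 12.4% of all genes. With the crossed block the members' median log2 difference was 0.02 for SRT1720+RSL3 against RSL3, 0.09 for SRT1720+RSL3 against control and 0.04 for the interaction. Over all genes these medians were −0.006, −0.002 and −0.02.

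The 10 highest levels per kb shared 7 members with those not divided by length. Depth was at least 20579122 counts a library. The 4 members under 0.5 CPM had too few counts to be tested, and the cause of their low counts was not tested.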
